A study of Mus musculus with 3 samples.

Results

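Hcn4, Hcn2, Shox2, Kcnj3 and Kcnj5 are genes of the pacemaker and of the conduction of the heartbeat, and they were described in nuclei of mouse hearts at embryonic day 9.5. Their 5 symbols each matched 1 of the 27998 genes counted, in all 3 libraries. Each library was single-nucleus RNA from 5 pooled flash-frozen hearts of 1 genotype of Ncx1 (Slc8a1), which encodes the sodium-calcium exchanger of the heart cell membrane: Ncx1+/+ (wild type), Ncx1+/- (heterozygous) and Ncx1-/- (mutant). No other allele or treatment is named, and neither the strain nor the deleted part of Ncx1 is stated. With 1 pooled library per genotype there is no replicate spread, so no p-value is given. The intervals below are exact 95% intervals that cover counting error only, and a difference between libraries cannot be told apart from a difference between the pools.

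In the early heart tube the beat starts in the sinus venosus, at the inflow end, passes through the atria, is slowed in the atrioventricular canal and then reaches the ventricles and outflow tract. HCN channels, of which Hcn4 and Hcn2 encode 2 kinds, open when the membrane is hyperpolarised and carry the inward current that helps set the rate. Shox2 encodes a homeodomain transcription factor that keeps sinus venosus muscle in its pacemaker state. Kcnj3 and Kcnj5 encode GIRK1 and GIRK4, which assemble into the potassium channel that acetylcholine opens through the M2 receptor to slow the rate. Embryos without Ncx1 are known to lack a regular beat and blood flow, and the comparison asks how these genes are expressed in that setting.

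The genes lie at these places in GRCm38 (GENCODE vM21). Hcn4 is on chromosome 9 at 58823412 to 58863175 on the plus strand, and Kcnj5 is on the same chromosome at 32314707 to 32344350 on the minus strand. Kcnj3 is on chromosome 2 at 55435970 to 55598145 (plus strand), Shox2 on chromosome 3 at 66971727 to 66981771 (minus strand) and Hcn2 on chromosome 10 at 79716634 to 79736108 (plus strand). Kcnj3 is the longest, at 162 kb, of which 3.22% is exon, whereas Shox2 spans 10.0 kb, of which 33.0% is exon. No label or header states whether intronic reads were counted, so levels are compared between libraries and nuclei for each gene and not between genes. Shox2 shares 382 bases with Rsrc1 and Kcnj3 shares 1891 bases with Gm26794, both on the opposite strand.

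The 250 bases before the RefSeq start (GRCm38.p6, printed 5′ to 3′ along the gene's own strand) are shown for 2 pairs: the channel partners Kcnj3 and Kcnj5, whose levels over cardiomyocyte clusters had a Pearson's r of 0.732, and Shox2 and Hcn4, which were often found in the same nuclei. Capitals mark matches to a GC box, GGGCGG or its reverse complement.
Kcnj3, chr2:55435720-55435969, plus strand: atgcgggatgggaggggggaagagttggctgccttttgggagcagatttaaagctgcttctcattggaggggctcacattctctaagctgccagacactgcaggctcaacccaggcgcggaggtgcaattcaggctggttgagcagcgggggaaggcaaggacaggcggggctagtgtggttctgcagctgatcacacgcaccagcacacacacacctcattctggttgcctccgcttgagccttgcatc
Kcnj5, chr9:32344345-32344594, minus strand: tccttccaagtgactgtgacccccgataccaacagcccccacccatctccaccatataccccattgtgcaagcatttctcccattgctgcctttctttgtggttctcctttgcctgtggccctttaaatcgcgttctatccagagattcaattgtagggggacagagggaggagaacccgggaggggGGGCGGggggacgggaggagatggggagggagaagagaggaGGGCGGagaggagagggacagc
Shox2, chr3:66981772-66982021, minus strand: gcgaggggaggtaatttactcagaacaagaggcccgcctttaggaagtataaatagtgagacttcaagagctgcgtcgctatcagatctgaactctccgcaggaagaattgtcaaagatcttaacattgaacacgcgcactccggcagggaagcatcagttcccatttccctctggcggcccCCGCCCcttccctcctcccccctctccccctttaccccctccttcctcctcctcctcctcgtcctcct
Hcn4, chr9:58822699-58822948, plus strand: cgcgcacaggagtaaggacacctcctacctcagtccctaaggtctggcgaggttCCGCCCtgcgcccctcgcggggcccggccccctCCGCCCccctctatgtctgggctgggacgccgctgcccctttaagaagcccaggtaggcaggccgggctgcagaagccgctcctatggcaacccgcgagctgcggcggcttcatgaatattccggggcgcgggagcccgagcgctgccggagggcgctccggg
The Kcnj5 window held 2 GC boxes, the Hcn4 window 2 and the Shox2 window 1, and the Kcnj3 window held none of the 6 motifs searched on both strands. GC boxes were in 32.7% of 32817 windows of this length. The other motifs were GGTGTGA for T-box factors (3.33% of windows), AGATAA for GATA factors (9.99%), TNAAGTG for NK2 homeodomain factors (10.1%), the homeodomain palindrome TAATTA (4.85%) and the E-box CACGTG (6.02%), and none of these was in the 4 windows. With GC boxes the single motif found, no matches of different motifs overlapped. GC content was 58.4% for Kcnj3, 58.0% for Kcnj5, 55.6% for Shox2 and 71.2% for Hcn4, against a median of 52.4% over all windows.

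After filters on detected genes, mitochondrial counts and doublets, 12468 wild-type, 11293 heterozygous and 11231 mutant nuclei were kept, with 49022310 to 59898298 UMIs (counted molecules) per library before the filters. The libraries shared 40 to 57 cell barcodes in pairs and none in all 3. Nuclei were grouped without the 5 genes or the conduction list among the genes used for clustering. Clusters that scored highest for the cardiomyocyte class, with a score of at least 0.42 on a scale that ends at 1 and at least 3 of 14 markers found, made up 71.5%, 73.1% and 77.9% of kept nuclei (wild type, heterozygous, mutant, the order used throughout), and all 14 markers were detected in each library. A further 2 clusters with the highest score for that class, of 218, 302 and 280 nuclei, were not counted, one for its low depth and the other for a score under 0.42. The cardiomyocyte class used for levels left out 2 such clusters whose leading genes included more markers of another class (led by Prrx1 and Tdgf1), and held 6956, 6372 and 6942 nuclei. Levels are given as CPM, the UMIs of a gene scaled to a total of 1000000. Slc8a1 was at 16488, 8698 and 1283 CPM in this class, in the order of the genotypes. Malat1, a nuclear RNA, took 5.26%, 5.57% and 9.08% of the class's UMIs, so that the mutant library gave a smaller share to all other genes.

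Cardiomyocyte nuclei held nearly all UMIs of 3 of the genes. Over all cardiomyocyte clusters they held 96.3% of Kcnj3, 95.6% of Kcnj5 and 91.4% of Hcn4 UMIs in kept nuclei, but 75.2% of Shox2. Epicardial nuclei (Wt1, Tcf21 and other markers) held a further 17.4% of the Shox2 UMIs, with 43 UMIs in 156 wild-type nuclei, 1 in 21 heterozygous and 48 in 209 mutant nuclei, or 79.8, 14.1 and 66.8 CPM. Hcn4 was also found there, at 40.8, 28.3 and 37.6 CPM, as was Kcnj3 at 76.1, 56.6 and 39.0. Kcnj5 was at 9.28 and 11.1 in the wild-type and mutant epicardial nuclei, with no UMI in the 21 heterozygous nuclei. Endothelial and endocardial nuclei had 1.97, 1.99 and 2.77 CPM of Hcn4 and 2.88, 1.36 and 4.08 of Kcnj3. Erythroid nuclei, which should lack these channels, showed the level that free RNA can give. They had 1, 2 and 3 Hcn4 UMIs, 3, 2 and 2 Kcnj3 UMIs, 7, 8 and 3 Kcnj5 UMIs and no Shox2 UMI in 495, 464 and 95 nuclei. These few counts gave 1.01, 2.29 and 14.6 CPM of Hcn4, 3.04, 2.29 and 9.75 of Kcnj3 and 7.10, 9.17 and 14.6 of Kcnj5. The endothelial levels of Hcn4 and Kcnj3 and the epicardial levels of Kcnj5 were not clearly above them.

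Hcn4 levels in cardiomyocyte nuclei of the 3 genotypes differed by less than counting error. Hcn4 stood at 23.9 CPM (22.1 to 25.8) in the wild type, 23.5 (21.6 to 25.6) in the heterozygote and 23.4 (21.7 to 25.3) in the mutant, and the mutant to wild-type ratio was 0.98 (0.88 to 1.10). With a coarser clustering, which put other nuclei in the class, that ratio was 0.84 (0.75 to 0.95). Weighting to the wild-type mix of clusters also put the ratio below the main interval, as given in the last paragraph. After thinning each nucleus to 2000 UMIs, 4.55%, 4.33% and 4.15% of nuclei had an Hcn4 UMI, against 8.21%, 7.82% and 8.04% without thinning. No erythroid nucleus of 203, 176 and 29 deep enough had one, which allows, at 3 counts of the total, a share of up to 1.48%, 1.70% and 10.3%. Thinning left out 655, 687 and 459 cardiomyocyte nuclei, and median depths were 3740, 3390.5 and 3587.5 UMIs in cardiomyocytes and 1845, 1760.5 and 1641 in erythroid nuclei.

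Hcn2 was at the limit of detection. It had 22, 15 and 20 UMIs in the class, or 0.79, 0.64 and 0.73 CPM, and with 57 UMIs it fell under the minimum of 100 counts over the libraries set for a comparison. Its mutant to wild-type ratio of 0.93 had an interval from 0.48 to 1.78, so no difference within that range was detectable at this depth.

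Shox2 was found in few cardiomyocyte nuclei, and its level in the heterozygous library was lower than in the other 2. It was at 5.38 CPM (4.55 to 6.31) in the wild type, 2.99 (2.33 to 3.78) in the heterozygote and 5.45 (4.61 to 6.40) in the mutant. A library was counted as standing apart for a gene when its level was at least 1.5 times above, or below, both others and the counting interval of each ratio excluded 1. By this rule Shox2 stood apart as lower in the heterozygous library, 1.80 times (1.35 to 2.43) below the wild type, where 0.14% of the 13617 genes measured did so. It did not in the mutant, at 1.01 (0.80 to 1.28) of the wild-type level. Weighting to the wild-type mix of clusters put this mutant ratio below that interval, as given in the last paragraph. At 2000 UMIs 0.920%, 0.616% and 0.864% of class nuclei had a Shox2 UMI (1.44%, 0.942% and 1.51% unthinned), against none of the erythroid nuclei. The heterozygous library also had the fewest epicardial nuclei, 0.186% of those kept, against 1.25% and 1.86%; the part of this in the Shox2 level of cardiomyocytes was not tested.

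Kcnj3 was lower in the mutant and intermediate in the heterozygote over the whole class, by less than 1.5 times. Its levels were 145 CPM (140 to 149), 128 (124 to 133) and 121 (117 to 125), a mutant to wild-type ratio of 0.84 (0.80 to 0.88). With all cardiomyocyte clusters the levels were 150, 132 and 115 and the ratio was 0.77 (0.74 to 0.80). The 3 counting intervals did not overlap with all clusters included, whereas those of the heterozygote and mutant met in the narrower class. At 2000 UMIs 18.1%, 16.5% and 15.8% of class nuclei had a Kcnj3 UMI (25.5%, 22.4% and 22.5% unthinned), against 0, 0 and 1 of the erythroid nuclei of that depth.

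Kcnj5, its channel partner, was nearer to the wild type in the mutant. It was at 76.9 (73.7 to 80.2), 77.1 (73.6 to 80.7) and 70.5 (67.4 to 73.7) CPM, and the mutant was at 0.92 (0.86 to 0.98) of the wild type. The share of nuclei with a UMI was 13.9%, 13.8% and 13.02% at 2000 UMIs (25.0%, 23.0% and 23.0% unthinned), against 1.48%, 2.27% and 3.45% of the erythroid nuclei. Neither gene of the channel stood apart in the mutant in the class, where 4.48% of genes measured were higher and 2.8% lower by that rule.

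All cardiomyocyte nuclei, including those left out of the class, were clustered again into 13 clusters, numbered from 0. They are called by region only from the fixed markers that were at least 1.5 times higher there than in the other cardiomyocyte clusters. Cluster 11, led by Calca and Kcnq3, had 6 of 8 atrial markers. Cluster 2, led by Bmp2 and Prrx1, and cluster 5, led by Tbx3os1 and Prrx1, had all 4 atrioventricular canal markers (Bmp2, Tbx2, Tbx3, Msx2). Cluster 0 had the same 4 together with 3 of 5 sinus venosus markers (Smoc2, Vsnl1, Cpne5) and stays named by number. Cluster 10 had 8 of 9 outflow tract markers, cluster 1 all 7 trabecular markers, and clusters 7 and 9 had 5 and 6 of 7 ventricular markers. Clusters 4 and 6 both had Nell1 and Frem1 among their leading genes, and cluster 8 was led by Fat3 and Fgf10. Clusters 3 and 12 were shallow, with median depths that averaged 2369 and 1083 UMIs over the libraries. Every cluster held nuclei of all 3 genotypes, from 123 upwards.

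**Figure D1:**
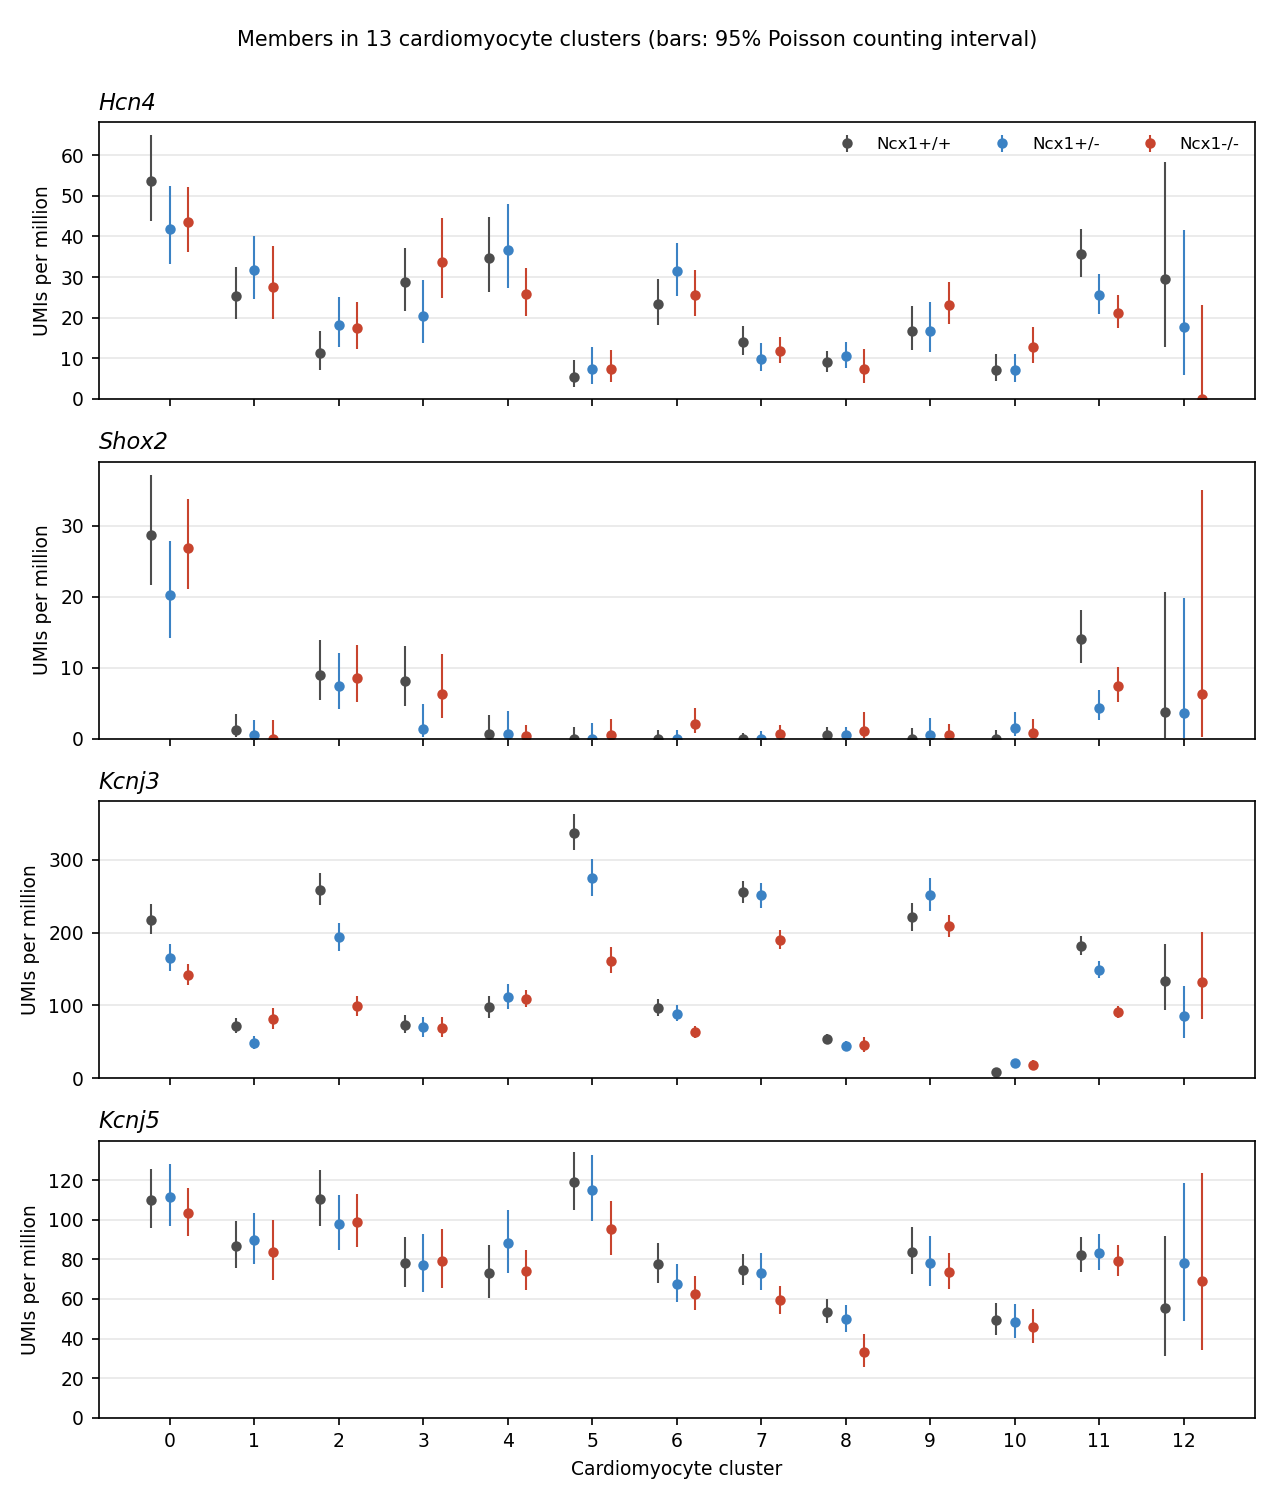
CPM of Hcn4, Shox2, Kcnj3 and Kcnj5 (y axes, each from 0) in the 13 cardiomyocyte clusters (x axis) for the 3 libraries; points are summed counts of a cluster in 1 library and bars are 95% Poisson intervals for counting error. Shox2 is highest in cluster 0 in each library, and the mutant points for Kcnj3 lie below the others in clusters 2, 5 and 11.

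Hcn4 was highest in cluster 0, at 53.6, 41.9 and 43.6 CPM, a mean of 46.4. Cluster 4 (32.4), cluster 1 (28.3), cluster 3 (27.6), atrial-like cluster 11 (27.4) and cluster 6 (26.8) followed with ranges over libraries that overlapped each other. The lowest means were 6.71 in atrioventricular canal-like cluster 5, 8.95 in cluster 8 and 8.97 in outflow-like cluster 10. Clusters 0 and 5 thus shared the canal markers and lay at opposite ends for Hcn4. In the atrial-like cluster Hcn4 was at 35.6 (30.1 to 41.8) in the wild type, 25.5 in the heterozygote and 21.2 in the mutant, a ratio of 0.60 (0.46 to 0.77) of mutant to wild type. The mutant was at 0.834 of the heterozygote there and did not stand apart. In a new clustering without the removal of doublets, the ratio to the wild type was 0.79 (0.62 to 1.01). This was in the cluster sharing the most nuclei with cluster 11, which held 86.1% of them. Of 10 clusters with at least 100 Hcn4 UMIs, the mutant was below the wild type in 5 and above in 5.

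Shox2 was concentrated in a few clusters. Cluster 0 held 41.96% of the cardiomyocyte Shox2 UMIs in 7.88% of the nuclei, atrial-like cluster 11 held 28.6%, and cluster 2 held 13.3%. In cluster 0 it was at 28.6, 20.2 and 26.9 CPM and in cluster 11 at 14.0, 4.37 and 7.34. The mutant to wild-type ratio was 0.94 (0.655 to 1.36) in cluster 0 and 0.52 (0.34 to 0.80) in cluster 11, and in both the heterozygote was the lowest. Nuclei were also clustered anew without the removal of doublets. The new clusters sharing the most nuclei with clusters 0 and 11 had ratios of 0.62 (0.42 to 0.91) and 0.88 (0.60 to 1.29). They held 75.6% of cluster 0 and 86.1% of cluster 11, so the nuclei compared also changed. Clusters 1, 4, 5, 6, 7, 8, 9 and 10, of trabecular, ventricular, canal and outflow muscle among them, each had a mean of at most 0.749 CPM. The number of nuclei with a Shox2 UMI was 106, 70 and 112 over all clusters, of which 35, 31 and 47 were in cluster 0 and 44, 16 and 28 in cluster 11.

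Cardiomyocyte nuclei with a Shox2 UMI carried more of 4 of the 5 sinus venosus markers. The 288 such nuclei of the 3 libraries were about as deep as the other 25633 (medians 3530.5 and 3538 UMIs). Smoc2 was at 64.6 CPM in them and 1.04 in the others, a ratio of 62.0 (45.5 to 84.2). Vsnl1, a neuronal calcium sensor gene, was 7.75 times higher (7.17 to 8.37), Isl1, a factor of inflow and outflow progenitors, 5.18 times (4.23 to 6.28) and Tbx18, a factor of the sinus horns, 2.32 times (1.60 to 3.26). Cpne5, the other marker of the list of 5, was at 0.77 of the level elsewhere (0.57 to 1.02). Of the atrial markers, Nr2f1 and Nr2f2, which set atrial identity, were 3.77 and 2.76 times higher. Mybphl, also atrial, was at 1.11 (0.86 to 1.40) and Dkk3 was lower, at 0.48 (0.34 to 0.66). Bmp4, a ligand on the outflow list, was 6.48 times higher, and Isl1 is on that list too. The trabecular marker Slit2 was 3.19 times higher (2.98 to 3.41), whereas the other trabecular markers had ratios below 1. All 7 ventricular markers were lower, from 0.168 for Irx1 to 0.477 for Myh7, and Tdgf1 of the outflow tract was at 0.041. Among the canal markers, Tbx3 was at 0.78 (0.60 to 1.00) and Tbx2 and Bmp2 at 1.78 and 1.86.

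**Figure D2:**
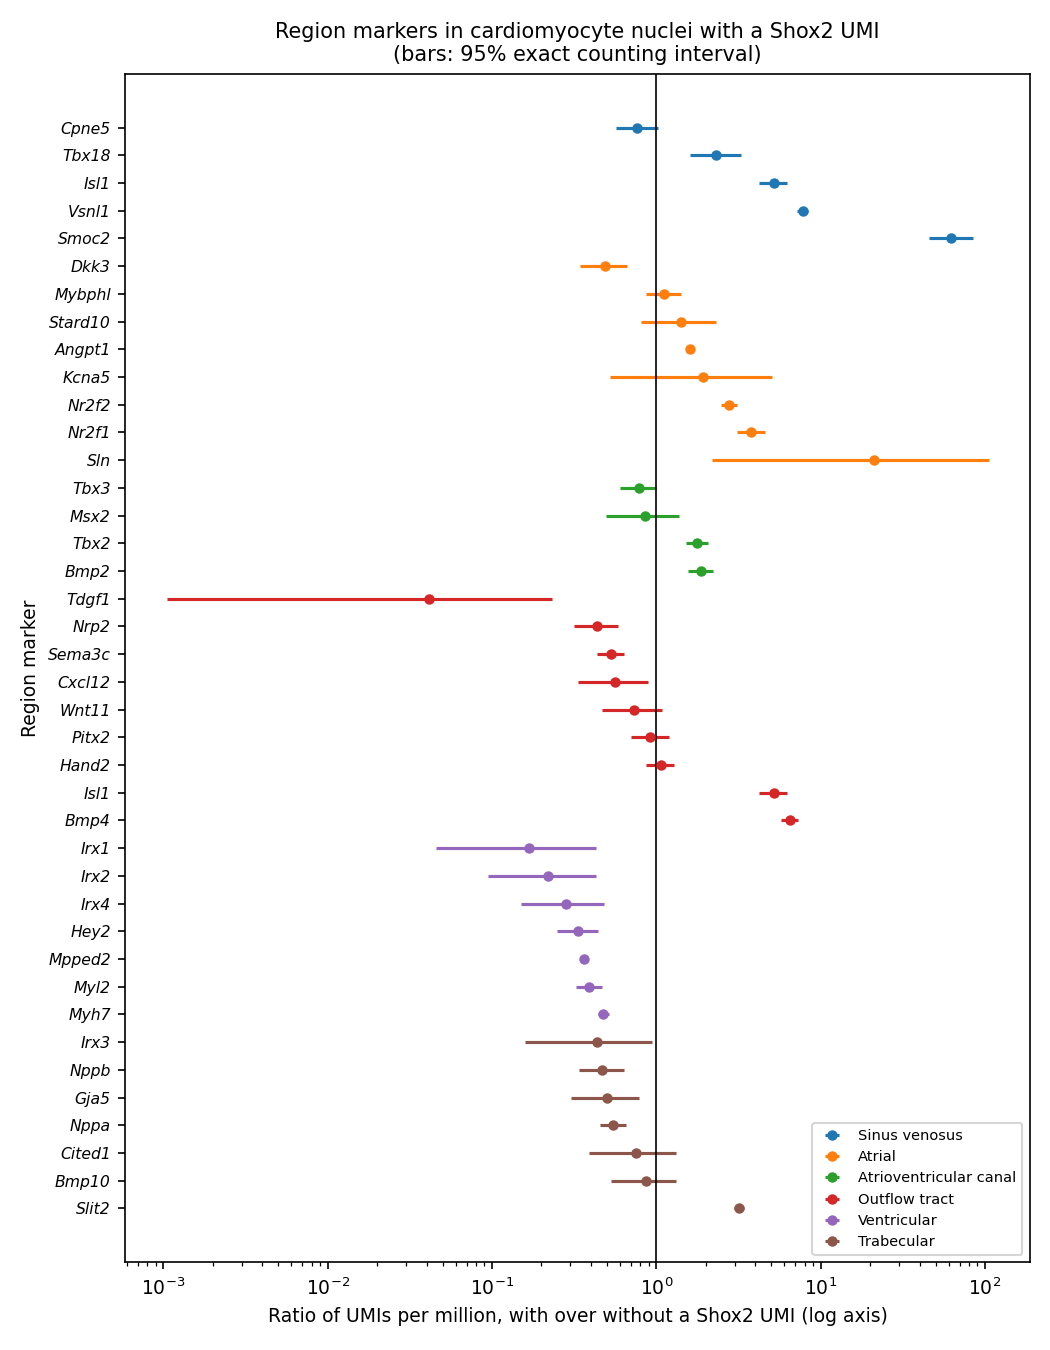
Ratio of CPM (x axis, log scale) in the 288 cardiomyocyte nuclei with a Shox2 UMI over the 25633 without, for the fixed region markers (y axis, coloured by region); bars are 95% exact counting intervals and the line is a ratio of 1. Smoc2, Vsnl1, Isl1 and Tbx18 lie to the right, as do Bmp4 and Slit2, and all 7 ventricular markers lie to the left.

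Markers of the epicardium, where Shox2 was also found, were near the level elsewhere. The 10 epicardial markers summed to 146 CPM with and 133 without a Shox2 UMI, a ratio of 1.10 (0.94 to 1.27), with 1 of the 10 at 0. The 14 cardiomyocyte markers summed to 0.99 of the level in the other nuclei. Cushion mesenchyme markers were somewhat higher, at 199.8 against 138 CPM (11 of 12 detected), and endothelial markers at 181 against 154; their part in the result was not tested.

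Of the other 4 genes, Hcn4 was the one clearly higher in Shox2-positive nuclei. It was at 118 CPM in nuclei with a Shox2 UMI and 19.3 in those without, a ratio of 6.11 (5.11 to 7.26). Thinned to 2000 UMIs, 13 of 63, 10 of 40 and 13 of 58 Shox2-positive nuclei had an Hcn4 UMI, or 20.6%, 25.0% and 22.4%, against 3.65%, 3.55% and 3.60% of the other nuclei. The counting intervals of the 3 libraries overlapped for either share. Within cluster 0 alone the shares were 28.9% (19.1 to 40.5) and 6.09%, and within the atrial-like cluster 19.6% (9.36 to 33.9) and 4.54%, so co-detection was also seen inside single clusters. Kcnj3 was lower in Shox2-positive nuclei, at 0.72 (0.60 to 0.87) of the level elsewhere, and Kcnj5 was at 1.11 (0.90 to 1.35).

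**Figure D3:**
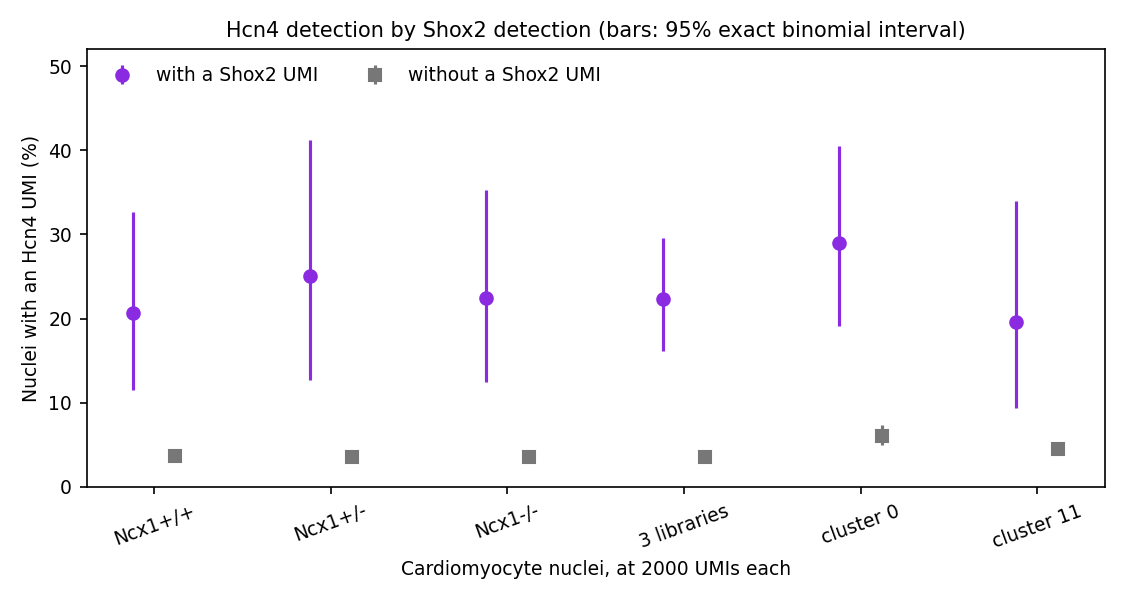
Percent of cardiomyocyte nuclei with an Hcn4 UMI (y axis) among those with (circles) and without (squares) a Shox2 UMI, each nucleus thinned to 2000 UMIs, by library, for the 3 libraries together and within clusters 0 and 11 (x axis); bars are 95% exact binomial intervals. The circles sit between 19.6% and 28.9% and the squares between 3.55% and 6.09%.

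In nuclei with UMIs of at least 2 of the 5 sinus venosus markers (421, 349 and 462 nuclei), Hcn4 was at 42.6, 38.4 and 30.9 CPM and Shox2 at 29.8, 14.7 and 22.9. The mutant to wild-type ratio was 0.73 (0.52 to 1.01) for Hcn4 and 0.77 (0.52 to 1.14) for Shox2, both within counting error of no difference.

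Kcnj3 varied more over clusters than Kcnj5. By the mean over libraries it was highest in canal-like cluster 5 (258 CPM), then in the ventricular-like clusters 7 (232) and 9 (227). Canal-like cluster 2 (184) and cluster 0 (175) followed. In the mutant, however, cluster 5 was at 162, below clusters 9 (209) and 7 (190). Clusters 7 and 9 did not differ beyond the range over libraries, nor did 2 and 0. The lowest were cluster 8 (48.1) and outflow-like cluster 10 (15.5). By the mean Kcnj5 was also highest in cluster 5 and lowest in clusters 8 and 10, but over a narrower range. Its means ran from 110 in cluster 5, 108 in cluster 0 and 102 in cluster 2 to 47.9 in cluster 10 and 45.5 in cluster 8. Mutant Kcnj5 was at 95.2 in cluster 5, below 103 in cluster 0 and 99.1 in cluster 2. The ventricular-like cluster 7, at rank 2 for Kcnj3, was at rank 10 for Kcnj5, with 69.0.

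In the canal-like and atrial-like clusters the mutant stood apart with less Kcnj3. In cluster 2 the levels were 259, 193 and 98.6 CPM, and the mutant was at 0.38 (0.32 to 0.45) of the wild type, in a cluster where 3.82% of 7695 measured genes were lower in the mutant by that rule. In cluster 5 they were 337, 275 and 162, a ratio of 0.48 (0.42 to 0.55), where 5.8% of genes were lower. In atrial-like cluster 11 they were 182, 149 and 90.4, a ratio of 0.50 (0.44 to 0.56), where 3.09% were lower. In each of the 3 clusters the heterozygote lay between the other 2 libraries. Of cluster 2, only 12.96%, 21.1% and 23.0% of nuclei belong to the class, and of cluster 5 only 23.8%, 20.3% and 13.1%, so most of their nuclei are not in the levels given for the class. Over all cardiomyocyte clusters the 12 cushion mesenchyme markers, which include Prrx1, summed to 165, 150 and 100.4 CPM, with none at 0 in any library, and their part in the Kcnj3 levels was not tested.

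In the other clusters the mutant did not stand apart. It was at 0.65 (0.57 to 0.75) of the wild type in cluster 0, with 218, 165 and 142 CPM, at 0.65 (0.54 to 0.78) in cluster 6 and at 0.75 (0.68 to 0.81) in ventricular-like cluster 7. It was at 0.94 (0.84 to 1.06) in ventricular-like cluster 9, 1.12 (0.93 to 1.37) in cluster 4 and 1.13 (0.88 to 1.43) in trabecular-like cluster 1. In all, 9 of 12 clusters with enough UMIs had less Kcnj3 in the mutant, 6 of them with an interval below 1. Of the 3 with more, 1 had an interval above 1, outflow-like cluster 10, where Kcnj3 was lowest. The ratio there was 2.34 (1.41 to 3.99). In a new clustering without the removal of doublets it was 0.985 (0.63 to 1.52), in the cluster that held 81.7% of cluster 10. Kcnj5 was below the wild type in 10 of 12 clusters, 4 of them with an interval below 1, and stood apart in none. Among all genes measured, the share lower in the mutant was 1.48% in cluster 0, 3.81% in cluster 1, 1.71% in cluster 3, 3.57% in cluster 4, 1.1% in cluster 6 and 1.64% in cluster 7. It was 3.19% in cluster 8, 3.42% in cluster 9 and 5.82% in cluster 10. The Kcnj5 ratio was 0.90 (0.74 to 1.08) in cluster 2, 0.80 (0.66 to 0.97) in cluster 5 and 0.965 (0.83 to 1.12) in cluster 11, so that the intervals of the 2 partners did not overlap in those 3 clusters.

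The same comparison was made without clusters, on cardiomyocyte nuclei with UMIs of at least 2 canal markers (1420, 1256 and 986 nuclei). Kcnj3 was at 228, 185 and 118 CPM there, and the mutant to wild-type ratio was 0.52 (0.47 to 0.57), again standing apart where 3.6% of 10478 genes were lower. Kcnj5 was at 102, 97.9 and 91.0, a ratio of 0.89 (0.78 to 1.01). Fewer mutant nuclei passed this choice, and Tbx3, one of the markers, was itself at 0.74 of the wild type in the class. Nuclei with at least 3 atrial markers (1015, 893 and 1236) had Kcnj3 at 190, 156 and 120, a ratio of 0.63 (0.57 to 0.70) that did not stand apart from the heterozygote, and Kcnj5 at 76.4, 80.0 and 76.5. Nuclei with sinus venosus markers gave 0.66 (0.56 to 0.78) for Kcnj3 and 1.03 (0.82 to 1.28) for Kcnj5. In nuclei with ventricular markers the Kcnj3 ratio was 0.90 (0.85 to 0.94), and in those with trabecular markers 1.18 (1.01 to 1.38).

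**Figure D4:**
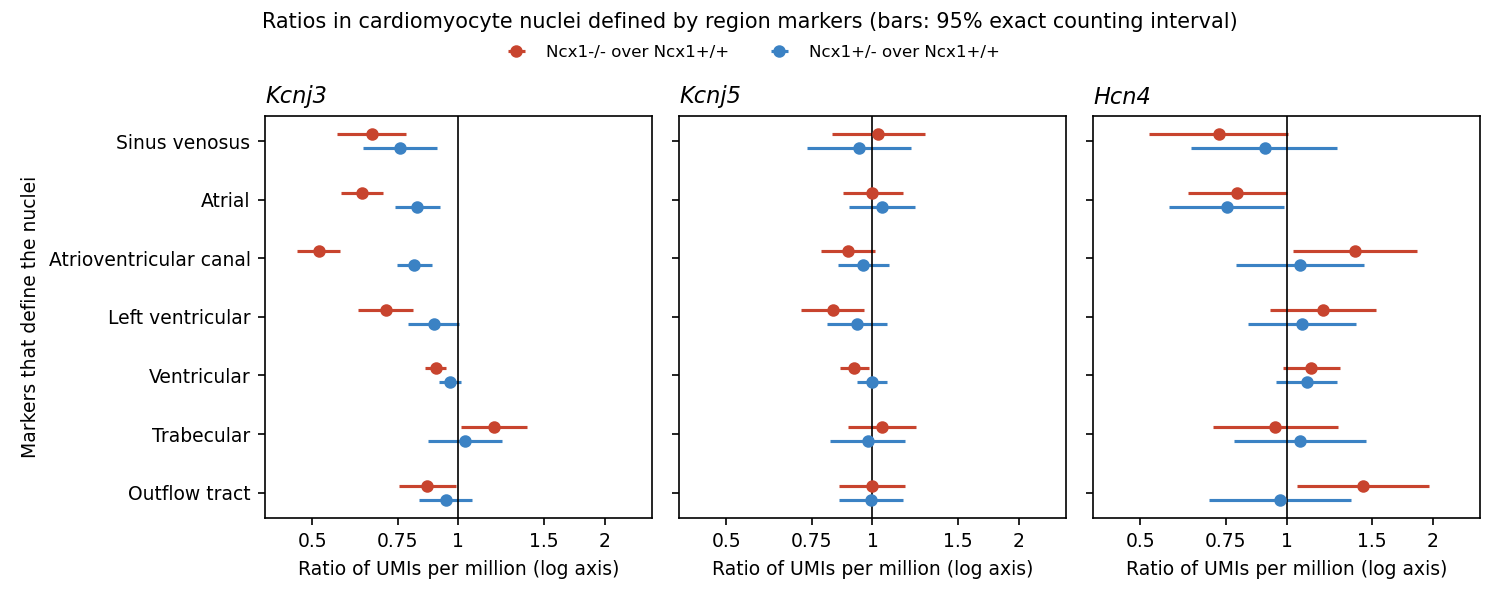
Ratio of CPM to the wild type (x axes, log scale) for Kcnj3, Kcnj5 and Hcn4 in cardiomyocyte nuclei that hold the markers of a region (y axis), with mutant over wild type in red and heterozygote over wild type in blue; bars are 95% exact counting intervals. For Kcnj3 the mutant is lowest in nuclei with canal markers, at 0.52, and the heterozygote lies between the mutant and 1 for sinus venosus, atrial and canal markers.

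Hcn4 was higher in the mutant than in the wild type in nuclei chosen by canal markers and in those chosen by outflow markers. It was at 15.5, 16.6 and 21.5 CPM in nuclei with canal markers, a mutant to wild-type ratio of 1.38 (1.03 to 1.86), and at 13.9, 13.5 and 20.02 in those with at least 3 outflow markers, a ratio of 1.44 (1.05 to 1.96). In nuclei with atrial markers it was at 32.2, 24.3 and 25.5, a ratio of 0.79 (0.63 to 1.00). The mutant stood apart in none of these, where 2.82% of genes with canal markers and 3.92% with outflow markers were higher by that rule. The marker-chosen nuclei overlap between regions, and those with outflow markers were unlike outflow-like cluster 10. Shox2 was at 6.34, 3.44 and 9.52 CPM in them, against 0, 1.48 and 0.77 in cluster 10. Results in nuclei with outflow markers therefore cannot be placed in outflow tract muscle alone. Cluster 0, with the canal markers and the most Hcn4, made up 6.51%, 7.57% and 9.57% of cardiomyocyte nuclei. The Hcn4 ratio was 0.81 (0.62 to 1.07) within cluster 0 and 1.55 (0.91 to 2.69) within canal-like cluster 2, both within counting error. Malat1 was at 10.8% of UMIs in mutant against 7.01% in wild-type canal nuclei, which leaves other genes a smaller share in the mutant. The part of the cluster mix and of Malat1 in these ratios was not tested.

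Taken over all cardiomyocyte clusters, nuclei with and without Kcnj3 had overlapping shares with Kcnj5. At 2000 UMIs, 14.1% (13.1 to 15.3) of the 4010 nuclei with a Kcnj3 UMI had a Kcnj5 UMI, against 13.6% of the 19733 without. By library the shares were 14.99%, 14.5% and 12.7% with and 13.7%, 13.5% and 13.6% without. In ventricular-like cluster 7 the share was 9.10% with and 13.3% without.

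The genes whose mean level over the 13 clusters was most like each of these genes were found among 10117 with at least 500 cardiomyocyte UMIs, by Pearson's r of log2(CPM + 1). Clusters share their libraries, and r is a description. For Kcnj3 they were Cacna2d2 (r = 0.928), a calcium channel subunit gene, Phldb2, Ssh2, Gmppa and Mllt3. For Kcnj5 they were Ppp1r3a (0.982), Ralb, Tbx5 (0.916), a factor of atrial and conduction tissue that is also a left ventricular marker, Rgs7bp and Acap2. For Shox2 they were Vsnl1 (0.850), Celf4, Fdps, Msmo1 and Tead2, and for Hcn4 Cdk16 (0.857), Rec114, Arfgef1, Xpnpep1 and Nptn. Among the 5 genes, r was 0.732 between Kcnj3 and Kcnj5, 0.527 between Hcn4 and Shox2 and 0.132 between Hcn4 and Kcnj3. Hcn2, with 70 UMIs, was too sparse for this.

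Conduction genes beyond these were taken from a list of 56 that includes the 5. Of 47 measured in the cardiomyocyte class, 2 stood apart as higher in the mutant and 3 as lower, against 4.48% and 2.8% of all genes measured. The median log2 ratio of mutant to wild type was -0.06 over the list and -0.02 over all genes measured. In the heterozygote 2 of the 47 stood apart, Shox2 and Smoc2, both lower, against 0.14% of all genes measured lower and 0.154% higher.

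Gja5, which encodes the fast-conducting connexin 40, was at 29.0, 30.1 and 58.8 CPM, 2.02 times higher in the mutant (1.86 to 2.20). Smoc2, a matrix protein gene of the sinus venosus, was at 1.54, 0.73 and 3.99. Id2, a factor of the ventricular conduction system, was lower in the mutant, at 267, 288 and 176, as were Adcy8, a calcium-stimulated adenylyl cyclase gene, at 8.21, 6.28 and 2.45, and Kcnip2, a subunit gene of the transient outward channel, at 3.12, 4.01 and 1.83. Gja5 and Kcnip2 stood apart under each of 9 other settings, while Id2 did so in 3, Smoc2 in 7 and Adcy8 in 8. The setting among these that only lowered the count minimum could not undo a call. Id2 did not with all clusters included, where Cav3 and Cacna1d did instead, as 3.25% of genes measured there were lower. A cardiomyocyte cluster with Gja5 among its leading genes held 312, 354 and 808 nuclei, and in nuclei with atrial markers Gja5 was at 1.23 (1.04 to 1.46) of the wild type and did not stand apart. A cluster with Adcy8 among its leading genes, led by Lmo2 and Rxfp1, held 389, 250 and 6 nuclei. The part of these cluster sizes in the levels of either gene was not tested. Adcy8 was at 21.1, 10.99 and 2.72 in nuclei with canal markers, 0.13 (0.06 to 0.23) of the wild type.

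Among the other genes of the acetylcholine-gated current, Kcnj6, which encodes GIRK2, was at 19.1, 14.0 and 10.5 CPM, 0.55 (0.48 to 0.64) of the wild type without standing apart from the heterozygote. Chrm2, the M2 receptor gene, was at 48.0, 33.9 and 38.2, and Rgs6, which speeds the closing of the channel, at 755, 722 and 852. Of 8 genes of this role measured in the class none stood apart. In nuclei with outflow markers Kcnj6 and Chrm2 both stood apart as lower, with Chrm2 at 109, 83.6 and 55.4, where 3.4% of genes measured were lower. Nuclei chosen by other markers differed. The Chrm2 ratio of mutant to wild type was 0.98 (0.80 to 1.22) with atrial markers and 1.36 (0.97 to 1.93) with sinus venosus markers. The Kcnj6 ratio was 1.41 (0.86 to 2.31) with canal markers. Kcnj6, Chrm2, Tbx3, Cav3 and the genes given in marker-chosen nuclei other than the first 5 were named after their values were seen.

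Of the calcium channel genes, Cacna1d, whose channel serves pacemaking, was at 1204, 1142 and 797 CPM in the class, 0.66 (0.65 to 0.67). In nuclei with atrial markers it was at 1564, 1436 and 873 and stood apart, where 1.82% of genes measured were lower. It also stood apart with outflow markers, at 0.62 (0.60 to 0.64) of the wild type, where 3.4% were lower. With sinus venosus, canal and ventricular markers the Cacna1d ratios were 0.54, 0.65 and 0.69, without standing apart. Cacna1c was at 3335, 3121 and 2693. The sodium channel gene Scn10a (5.34, 6.45 and 4.68) and the potassium channel genes Kcnq1 (36.6, 32.2 and 42.9) and Kcnh2 (37.4, 38.8 and 39.6) did not stand apart.

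**Figure D5:**
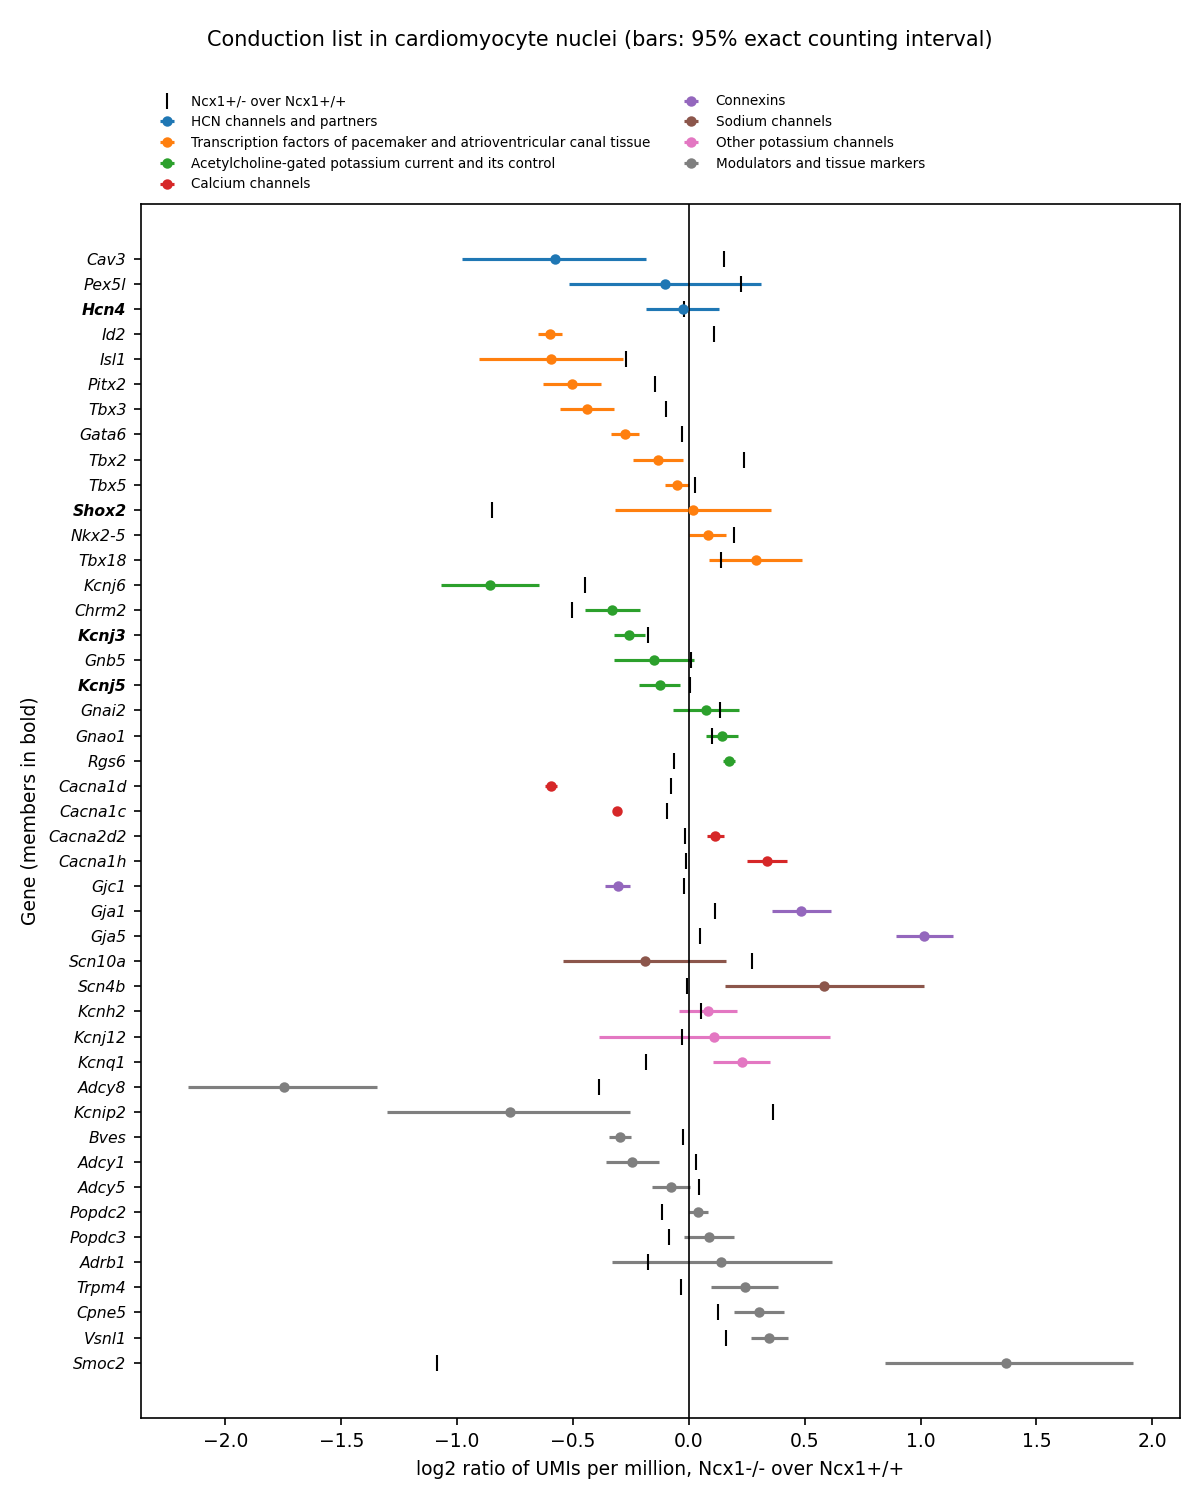
Log2 ratio of CPM, mutant over wild type (x axis), for measured genes of the conduction list in cardiomyocyte nuclei (y axis, grouped and coloured by role, Hcn4, Shox2, Kcnj3 and Kcnj5 in bold); bars are 95% exact counting intervals and black ticks are heterozygote over wild type. Gja5 and Smoc2 lie farthest to the right and Adcy8 farthest to the left.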

How the data were processed

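Single-nucleus RNA was measured in 3 libraries, 1 per genotype, each from 5 pooled hearts. The values are raw UMI counts per gene and nucleus, deposited by the authors as filtered matrices. The submitters' processing notes name Cell Ranger 6.1.0 and mm10, whereas the file headers give Cell Ranger 9.0.0. Nuclei with at least 500 genes and at most 5% mitochondrial counts were kept, and the 8% with the highest Scrublet scores in each library were removed. The rest were scaled to 10000, log-transformed and clustered with scanpy 1.11.5 (2000 variable genes, 30 components, 15 neighbours, Leiden resolution 1.0). Counts were summed per library and class or cluster, divided by the total and scaled to 1000000 (CPM). Ratios have exact 95% intervals, and a gene needed 100 counts over the libraries. With 1 library per genotype no test across samples was made. The scripts were tested on simulated data. Genes were named as the 5 members, up to 2 of each role of the conduction list, those of the list standing apart, and the 5 most alike. The members and lists were chosen with earlier results of these data known. Some genes of the conduction list are counted but not reported here by name or plotted.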

Additional observations from a re-analysis of the deposited data

Results flagged for a closer look

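Kcnj3, the GIRK1 gene, had mutant to wild-type ratios on both sides of 1 whose counting intervals excluded 1 in different cardiomyocyte clusters. The ratio was 2.34 in outflow-like cluster 10, where Kcnj3 was lowest in all, with levels of 7.88, 20.3 and 18.4 CPM. It was 0.651 in cluster 0, 0.381 in cluster 2, 0.479 in cluster 5, 0.651 in cluster 6, 0.745 in cluster 7 and 0.496 in cluster 11. The difference between clusters was not tested, since there is 1 library per genotype. The ratio above 1 was not kept without the removal of doublets, where it was 0.985 in the cluster sharing the most nuclei with cluster 10. At the coarser clustering it was 0.682 in a broader cluster, of which 44.9% were cluster 10 nuclei. Nuclei with outflow markers had a ratio of 0.863, but their Kcnj3 was at 96.5, 90.9 and 83.3 CPM. With levels so far above those of cluster 10, they cannot show whether its ratio holds.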

How the results depend on the processing

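Of 215 alternative values for 31 results, 184 stayed within the main counting interval (or, for counts of genes, within 1.5 times). The other 31 moved beyond it. A reversal could be scored only where the main result was a call of a library standing apart. Those were Shox2 in the heterozygote and Kcnj3 in clusters 2, 5 and 11, and 0 of their alternatives reversed direction. Calls on the conduction list were lost, for Id2 in 6 of 9 alternatives, Smoc2 in 2 and Adcy8 in 1. The alternative that only lowered the count minimum could not lose a call. Kcnj3 in cluster 10, which was not such a call, did cross 1. For the mutant to wild-type ratio in the cardiomyocyte class, Leiden resolution 0.5 gave 0.844 for Hcn4 and 0.796 for Kcnj3, resolution 2.0 gave 0.753 for Kcnj3, and a minimum of 1000 genes gave 0.880 for Kcnj3. Weighting to the wild-type mix of clusters gave 0.870 for Hcn4, 0.787 for Shox2, 0.752 for Kcnj3 and 0.849 for Kcnj5. With all cardiomyocyte clusters Kcnj3 was at 0.768, and without the shallow ones at 0.757. The heterozygous to wild-type ratio of Shox2 was 0.374 at resolution 0.5. Within clusters, Kcnj3 in the mutant was at 0.570 of the wild type in cluster 5 without doublet removal, 0.393 with 1000 genes and 0.568 at resolution 0.5, in matched clusters that shared the most nuclei (40.1% of cluster 5 with 1000 genes, and 38.5% of the broader one at 0.5). It was at 0.424 in cluster 11 with 1000 genes. Nuclei chosen by markers gave 0.515 for the canal (cluster 2) and 0.633 for the atria (cluster 11). In cluster 10 it was 0.985 without doublet removal, 0.682 at resolution 0.5 (44.9% of that cluster) and 0.863 by markers. The nuclei chosen by outflow markers had far more Kcnj3 than cluster 10 (96.5, 90.9 and 83.3 CPM), so their value cannot check that cluster. The cause of these shifts was not tested. Alternatives within clusters, the choice by markers and the one without shallow clusters were added after seeing the data. Leaving out a library removes a genotype and was not possible. No paired analysis was possible because each genotype has 1 library. Depth limited Hcn2 everywhere and Shox2 in most clusters.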
